A study of Mus musculus with 23 samples.

Results

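The homeostatic astrocyte genes described here are 10 genes that mark mature, resting astrocytes: Aqp4, Kcnj10, Slc1a2, Slc1a3, Glul, Gja1, Gjb6, Aldoc, Aldh1l1 and S100b. They were taken by symbol from a table of 55335 genes counted in 23 mouse hippocampal RNA-seq libraries, and all 10 were found and passed the filter on low counts in every comparison. Each library came from the microdissected hippocampus of a female mouse. WT-8M (n = 4) and 3xTg-8M (n = 4) were untreated mice aged 8 months. At 10 months, mice had received a 28-day intracerebroventricular infusion by osmotic pump of the DMSO-containing vehicle (WT-D, n = 4, and 3xTg-D, n = 4) or of the stearoyl-CoA desaturase inhibitor (SCDi) ab142089 at 80 µM (WT-S, n = 3, and 3xTg-S, n = 4). WT mice were C57BL/6J x 129S1, the strain controls of the 3xTg line, and carried no transgene. 3xTg mice carried human APP Swe and human tau P301L transgenes, both driven in neurons by the Thy1.2 regulatory element. The transgenes are thus directed to neurons rather than astrocytes, and no untreated mice of 10 months were among the samples.

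Astrocytes keep the fluid around synapses in balance. They take up released glutamate through the transporters encoded by Slc1a3 (GLAST) and Slc1a2 (GLT-1) and turn it into glutamine with glutamine synthetase, the product of Glul. They clear potassium through Kir4.1 (Kcnj10) and move water through aquaporin-4 (Aqp4), which is concentrated in the endfeet that wrap blood vessels, and they are joined into a network by gap junctions of connexin 43 (Gja1) and connexin 30 (Gjb6). Aldoc encodes the brain form of the glycolytic enzyme aldolase, Aldh1l1 a folate enzyme widely used to mark astrocytes, and S100b a calcium-binding protein that astrocytes and also cells of the oligodendrocyte lineage make.

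The libraries held 12802267 to 36686413 gene counts at 8 months and 12992547 to 17575615 at 10 months, and TMM scaling factors were between 0.968 and 1.023. A single member was supported by 508 to 122759 counts per library. All of the tissue was whole hippocampus, in which fewer astrocytes and less RNA per astrocyte cannot be told apart. Markers of other cells were present in every library: the summed level of 10 neuronal markers was 10080 to 12540 CPM (counts scaled by TMM to a common library total) and that of 10 oligodendrocyte markers 3418 to 7056 CPM. The neuronal sum was 11510 to 12400 CPM in WT-8M and 10470 to 11470 CPM in 3xTg-8M. It was 11760 to 12240 CPM in WT-D and 10800 to 11780 CPM in 3xTg-D. With SCDi it was 11090 to 12540 CPM in WT and 10080 to 11700 CPM in 3xTg. Of the 10 neuronal markers, 8 had lower estimates in 3xTg-8M against WT-8M and 9 in 3xTg-D against WT-D. For 3xTg-S, 9 had lower estimates against WT-S and 10 against WT-D. None was called, and their part in the members' values was not tested. Among 80 markers of 8 other cell types and regions, 1 (Mia, of ependyma) was at or under 3 counts in every library. The libraries of 3xTg-D replicate 3, 3xTg-S replicate 2 and 3xTg-8M replicate 4 stood apart from their groups for these genes. Reads assigned to no gene were highest in 3xTg-8M replicate 4 at 8 months (30.9%) and in 3xTg-S replicate 2 at 10 months (27.5%). They were 25.2% in 3xTg-D replicate 3. The part of this share in the members' values was not tested.

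The promoters are shown for 3 of the 6 members for which the library of 3xTg-D replicate 3 was extreme: there Glul and Gjb6 had their highest level of all libraries and S100b its lowest. Aldoc, Aldh1l1 and Kcnj10 also had their highest level there, and their windows are not printed. RefSeq windows of the 250 bases before the start site were matched by symbol for 9 of the 10 members (10 windows, 2 of them for Aldoc; GRCm38.p6), and Aqp4 is named only. Motifs were searched on both strands, and capitals mark those that were found. The CCAAT box was searched by its name's letters. The GC box was read as GGGCGG and the TATA box as TATAAA, while the AP-1 site was read as TGANTCA. The STAT site was read as TTCNNNGAA, the core of a glucocorticoid response element as AGAACA and the SOX core as ACAAAG. The Glul window lies at chr1:153899679-153899928 (plus strand), the Gjb6 window at chr14:57133612-57133861 (minus strand) and the S100b window at chr10:76253586-76253835 (plus strand).
Glul: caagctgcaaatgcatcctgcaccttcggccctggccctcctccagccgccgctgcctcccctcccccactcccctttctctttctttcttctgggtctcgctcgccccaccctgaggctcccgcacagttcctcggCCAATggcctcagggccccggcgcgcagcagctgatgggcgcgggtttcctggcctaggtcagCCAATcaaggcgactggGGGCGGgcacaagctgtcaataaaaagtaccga
Gjb6: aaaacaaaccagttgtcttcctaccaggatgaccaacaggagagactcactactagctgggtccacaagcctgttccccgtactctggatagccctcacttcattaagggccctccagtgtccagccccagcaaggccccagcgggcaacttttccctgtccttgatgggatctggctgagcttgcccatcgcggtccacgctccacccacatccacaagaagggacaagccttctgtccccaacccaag
S100b: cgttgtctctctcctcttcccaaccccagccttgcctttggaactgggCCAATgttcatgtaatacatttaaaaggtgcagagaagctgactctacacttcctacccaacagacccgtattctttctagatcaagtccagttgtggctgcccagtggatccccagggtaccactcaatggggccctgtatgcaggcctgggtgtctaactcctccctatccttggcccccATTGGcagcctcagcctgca
The Glul window held 2 CCAAT boxes and 1 GC box, the S100b window held 2 CCAAT boxes, and the Gjb6 window held none of the letters searched. A CCAAT box was in 5 of the 10 member windows and in 33.8% of 32851 windows of the same length in all, and a GC box was in 5 of the 10 and in 32.7%. The glucocorticoid core was in the windows of Kcnj10 and Slc1a3 (16.1% of all windows), a STAT site in 1 Aldoc window and that of Slc1a3 (7.02%), an AP-1 site in that of Gja1 (6.75%), a TATA box in that of Slc1a3 (12.4%) and the SOX core in none (16.5%). The windows of Aldh1l1 (chr6:90550543-90550792) and Slc1a2 (chr2:102706188-102706437) and 1 Aldoc window (chr11:78323948-78324197) lie inside the annotated genes, before inner starts. Among the matches counted, a CCAAT box and a GC box were in this Aldh1l1 window, and the STAT site of Aldoc was in its inner window. The Glul window had a GC content of 64.8% with 15 CpG, compared to 53.6% with 2 CpG for S100b and 56.8% with 5 for Gjb6.

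Per union exon length (all annotated exons of a gene together), Glul was the most abundant member and Aldh1l1 the least. Mean TPM (the level per union exon length, scaled to the same total in each library) across the 23 libraries were 1665 ± 158 (SD) for Glul, 927 ± 92.1 for Slc1a2, 795 ± 78.6 for Aldoc, 357 ± 24.6 for Slc1a3 and 320 ± 35.6 for S100b. Mean TPM were 110 ± 12.9 for Kcnj10, 106 ± 16.3 for Aqp4, 94.2 ± 8.56 for Gja1, 90.9 ± 17.8 for Gjb6 and 36.2 ± 3.31 for Aldh1l1. On this scale the members had the glutamate, glutamine and glycolysis genes at the top and the channels and connexins below, and their median of 215 TPM compared with 81.3 TPM for 40 other astrocyte genes. The order depends on the length used. Union exons and the longest transcript were 10257 and 3889 nt for Gja1 and 8537 and 4435 nt for Slc1a3. For S100b (1484 nt) and Kcnj10 (5407 nt) both lengths were equal. Glul lay above Slc1a2, Aldoc above Slc1a3, S100b above Kcnj10 and Gjb6 above Aldh1l1 in all 23 libraries, with no overlap of their TPM ranges. The ranges of the other neighbours overlapped: Slc1a2 was above Aldoc in 20 of 23 libraries, Slc1a3 above S100b in 19, Kcnj10 above Aqp4 in 11, Aqp4 above Gja1 in 19 and Gja1 above Gjb6 in 15. Over all libraries the highest CPM was 1.29-fold (Slc1a3) to 2.19-fold (Gjb6) the lowest. In GRCm38 the annotation places Aqp4 at chr18:15389496-15410982, Kcnj10 at chr1:172341210-172374085, Slc1a2 at chr2:102658659-102790784, Slc1a3 at chr15:8634124-8710764, Glul at chr1:153899944-153909723, Gja1 at chr10:56377330-56402513, Gjb6 at chr14:57123303-57133611, Aldoc at chr11:78322968-78327781, Aldh1l1 at chr6:90486427-90600203 and S100b at chr10:76253853-76261159.

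**Figure D1:**
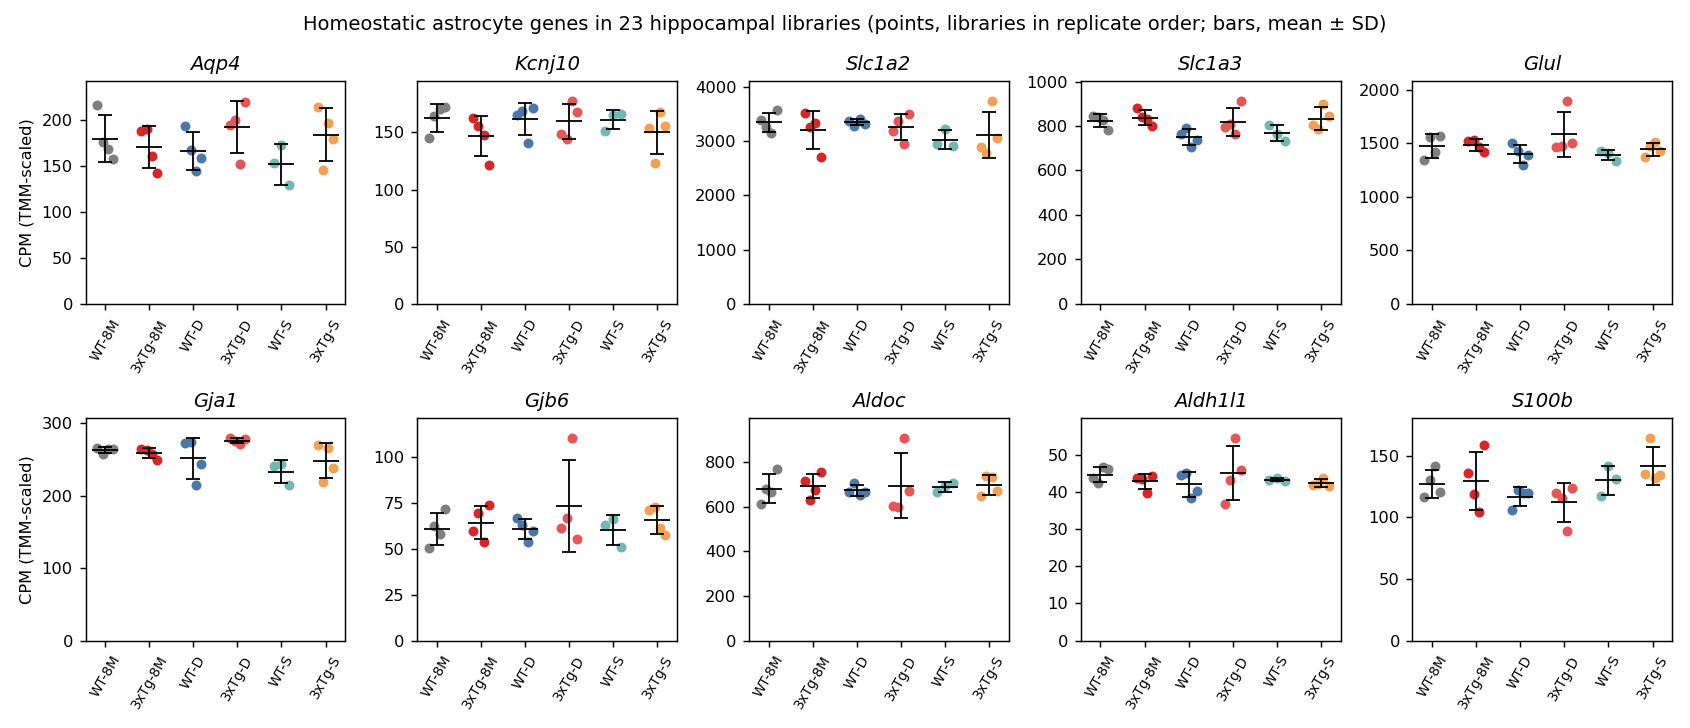
Level of each of the 10 genes (TMM-scaled CPM, linear axes from 0) in the 6 groups; points are single libraries in replicate order and bars the mean ± SD (n = 4, or 3 for WT-S). Among the pairs of groups compared, only S100b, Gja1 and Slc1a2 had groups without overlap. 3xTg-D replicate 3 stood above its group for Glul (1891 CPM), Gjb6 (110.5 CPM) and Aldoc (907.5 CPM) and below it for S100b (88.8 CPM).

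The first comparison asked whether the early symptomatic 3xTg hippocampus differs from WT at 8 months. No change was called among the 10 homeostatic genes: edgeR's quasi-likelihood test with Benjamini-Hochberg adjustment called 0 of 10, against 2.58% of the 15483 genes tested, and 0 of 10 had an unadjusted p under 0.05, against 17.4% of all genes. DESeq2's likelihood ratio test also called 0. No member had groups that did not overlap, compared to 11.3% of all genes. The median log2 fold change of the members was -0.0037, beside 0.0060 over all genes, with 5 members above and 5 below 0. The 95% intervals of the fold change of all 10 members lay between 0.786 and 1.26, with the bounds of single members narrower, as for Gja1 (0.914 to 1.06) and Slc1a3 (0.939 to 1.11).

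Kcnj10 had the largest estimate at 8 months. It measured 145, 164, 171 and 172 CPM in WT-8M and 163, 156, 148 and 122 CPM in 3xTg-8M, and the fitted log2 difference was -0.15 (SE 0.09; adjusted p = 0.436, edgeR). The groups overlapped, and the lowest value came from 3xTg-8M replicate 4. Without that library the estimate was -0.066. That library was also lowest of its group for Slc1a2 (2704 CPM, with the other replicates at 3525, 3254 and 3328 CPM) and highest for S100b (159 CPM, with the others at 136, 119 and 105 CPM), and without it the log2 fold change went from -0.06 to 0.014 for Slc1a2 and from 0.03 to -0.078 for S100b. The connexin Gja1 was the steadiest member, at 263 ± 3.73 CPM (SD, n = 4) in WT-8M and 259 ± 6.63 CPM in 3xTg-8M.

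At 10 months, vehicle-infused 3xTg mice were compared with vehicle-infused WT mice. Again 0 of 10 members were called by edgeR (1.39% of 15528 genes) and by DESeq2, 0 of 10 had an unadjusted p under 0.05 (13.1% of all genes), and 0 of 10 had groups without overlap (7.79% of all genes). Of the 10 members 7 were above 0, and their median log2 fold change was 0.11, beside -0.0029 over all genes. The median was 0.031 without 3xTg-D replicate 3 and 0.058 without WT-D replicate 3. The 95% intervals ran from 0.83-fold to 1.58-fold over the members, the widest of them for Gjb6.

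The upward estimate of the connexin 30 gene rested on 1 library, and that of the glutamine synthetase gene was smaller without the same library. Gjb6 was 66.7, 62.9, 53.8 and 59.8 CPM in WT-D and 61.7, 66.8, 110.5 and 55.4 CPM in 3xTg-D (log2 fold change 0.27, SE 0.18). Glul was 1498, 1425, 1297 and 1389 CPM in WT-D and 1466, 1472, 1891 and 1499 CPM in 3xTg-D (log2 fold change 0.17, SE 0.08). In both genes the library of 3xTg-D replicate 3 was the high one, and the others lay close to WT-D. Without it the log2 fold change was 0.02 for Gjb6, 0.08 (SE 0.06) for Glul and 0.0025 for Aldh1l1, which had been 0.10.

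The Aqp4 estimate grew without that library. It measured 194, 168, 145 and 159 CPM in WT-D and 195, 200.5, 153 and 220.1 CPM in 3xTg-D, and replicate 3 of 3xTg-D was here low, not high. The log2 fold change was 0.20 (SE 0.11; adjusted p = 0.467, edgeR), and 0.31 without that library (unadjusted p = 0.0036; adjusted p = 0.1355, edgeR). Slc1a3 and Gja1 had log2 fold changes of 0.12 (SE 0.06) and 0.13 (SE 0.07), which were 0.067 without 3xTg-D replicate 4 and 0.061 without WT-D replicate 3, and Slc1a2, Kcnj10, Aldoc and S100b between -0.07 and 0.04. All 10 microglial markers had a positive log2 fold change in this contrast (median 0.26), and C1qa and C1qb, which encode complement subunits, were called higher (log2 fold changes of 0.49 and 0.48; adjusted p = 0.0442 and 0.0404, edgeR). At 8 months, where the members' median was -0.0037, 8 of these markers had higher and 2 lower estimates (median 0.22). There 4 were higher at an unadjusted p under 0.05 and none was called (edgeR). The part of the microglial markers in the members' values was not tested.

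The effect of SCDi within 3xTg mice was then examined. edgeR called 0 of 10 members, and 0.0% of 15530 genes in all, when 3xTg-S was compared with 3xTg-D; DESeq2 called 0 members and 14 genes. An unadjusted p under 0.05 was found for 2 of 10 members, S100b and Gja1, against 11.2% of all genes, and the same 2 had groups without overlap, against 7.03% of all genes. The members' median log2 fold change was -0.08 (all genes, -0.0021), with 3 members above and 7 below 0. Leaving out 3xTg-D replicate 3 gave -0.020, leaving out 3xTg-S replicate 2 gave -0.019, and leaving out both gave 0.019 with 6 members above 0. Since 3xTg-D serves as the control here and as the test group of the preceding comparison, its replicate 3 enters both.

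S100b was the member with the largest difference. It measured 120, 116, 88.8 and 124 CPM in 3xTg-D and 135, 165, 132 and 134 CPM in 3xTg-S, so that every SCDi library was above every vehicle library. The log2 fold change was 0.34 (SE 0.10; 95% interval of the fold, 1.09 to 1.47; unadjusted p = 0.0054; adjusted p = 0.378, edgeR), which does not pass the threshold over all genes. The 2 most distant libraries were 3xTg-D replicate 3 and 3xTg-S replicate 2. The log2 fold change was 0.24 without the former, 0.26 without the latter and 0.16 (SE 0.04; unadjusted p = 0.0040; adjusted p = 0.587, edgeR) without both, a setting chosen after the data were seen.

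The markers of oligodendrocytes, which also make S100b, had higher estimates in the same contrast. All 10 of 10 markers were higher in 3xTg-S than in 3xTg-D (median log2 fold change 0.28), 5 of them at an unadjusted p under 0.05 and none with an adjusted p under 0.05 (edgeR). Their summed level was 6292, 5281, 3964 and 6063 CPM in 3xTg-D and 6517, 7056, 6226 and 6411 CPM in 3xTg-S, and the library lowest for S100b in 3xTg-D and that highest in 3xTg-S were also lowest and highest for the markers. In other contrasts S100b and the markers parted. In WT-S against WT-D, S100b had 0.15 while 5 markers were higher and 5 lower (median 0.024). In 3xTg-D against WT-D, S100b had -0.07 while 6 markers were higher and 4 lower (median 0.09). Over the 23 libraries, after subtraction of the group means, the log2 levels of S100b and of the summed markers had a Pearson's r of 0.65, 0.52 without 3xTg-D replicate 3 and 0.57 in the 20 libraries without the 3 that stood apart. These points share library composition and scaling. In those 20 libraries Aldoc (0.73) and Kcnj10 (0.72) had a higher r with the oligodendrocyte markers than S100b, though over all 23 theirs were -0.0018 and 0.11. S100b also correlated with other summed markers, with r in all 23 and in the 20 libraries of 0.50 and 0.63 for ependyma, -0.58 and -0.66 for thalamus, 0.45 and 0.48 for microglia and 0.20 and 0.66 for reactive astrocyte genes. For choroid plexus they were 0.62 and 0.43, and these markers were highest in WT-S replicate 2 (778 CPM), 3xTg-8M replicate 4 (722 CPM) and 3xTg-S replicate 2 (578 CPM), and the part of these cell types in the S100b values was not tested.

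**Figure D2:**
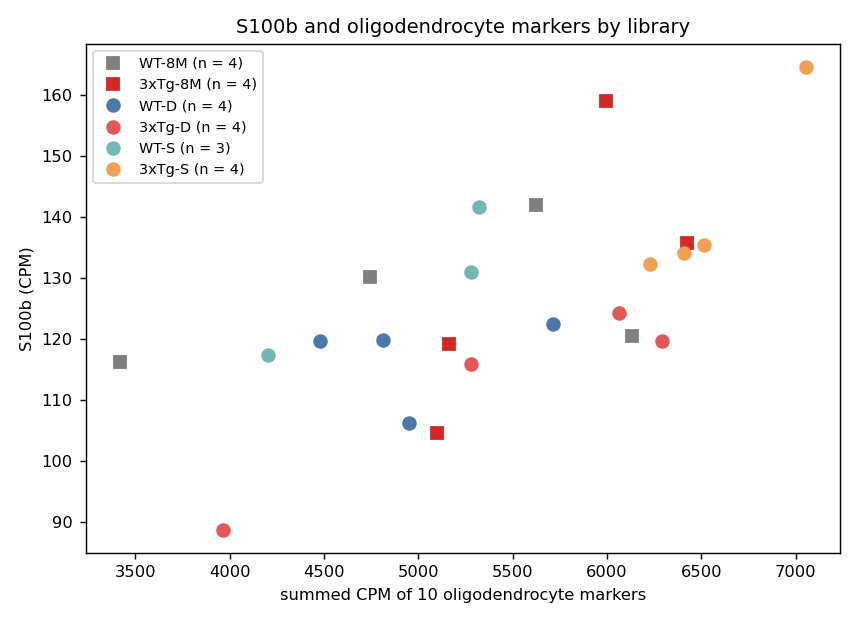
S100b level (CPM, vertical axis) against the summed CPM of 10 oligodendrocyte markers (horizontal axis) in each of the 23 libraries, coloured by group. 3xTg-S replicate 2 (165 and 7056 CPM) and 3xTg-D replicate 3 (88.8 and 3964 CPM) lie at the upper right and the lower left. Neither axis starts at 0.

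Gja1 had a lower mean in 3xTg-S. It measured 279, 275, 271 and 279 CPM in 3xTg-D and 270.3, 219, 266 and 239 CPM in 3xTg-S (log2 fold change -0.15, SE 0.06; unadjusted p = 0.033; adjusted p = 0.423, edgeR). The groups did not overlap, with the lowest vehicle library next to the highest SCDi library. Without 3xTg-S replicate 2 the estimate was -0.097, without that library and 3xTg-D replicate 3 it was -0.10 (unadjusted p = 0.065; adjusted p = 0.641, edgeR), and with a length and GC trend removed the unadjusted p was also over 0.05. The vehicle group was tight for this gene (SD 3.65 CPM) compared to 3xTg-S (SD 24.0 CPM). The remaining members had log2 fold changes between -0.17 (Gjb6) and 0.03 (Slc1a3). Without 3xTg-D replicate 3 Gjb6 turned from -0.17 to 0.10 and Aldoc went from 0.0074 to 0.16 (unadjusted p = 0.0274; adjusted p = 0.5098, edgeR), so the sign of the Gjb6 estimate was set by that library.

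In WT mice no homeostatic gene was called after SCDi. edgeR called 0 of 10 members and 0.0% of 15724 genes between WT-S and WT-D, DESeq2 called 0 as well, and the members' median log2 fold change was -0.0082 (all genes, 0.0017). A single member had an unadjusted p under 0.05, against 3.42% of all genes, and had groups without overlap, against 4.88%. This was Slc1a2, which measured 3368, 3283, 3415 and 3321 CPM in WT-D and 2944, 3221 and 2907 CPM in WT-S (log2 fold change -0.15, SE 0.06; unadjusted p = 0.029; adjusted p = 0.981, edgeR). S100b was 106, 122, 119.6 and 120 CPM in WT-D and 117, 142 and 131 CPM in WT-S (log2 fold change 0.15, SE 0.07), with overlapping groups. The intervals of the 10 members lay between 0.771-fold and 1.25-fold.

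The test of the difference between strains in the response to SCDi, an interaction term over the 15 libraries of 10 months, called 0 of 10 members and 0.0% of 16262 genes by edgeR, and 0 by DESeq2. Unadjusted p values under 0.05 were found for 0 of 10 members and 2.32% of all genes. For S100b the log2 response to SCDi was higher by 0.19 (SE 0.14) in 3xTg than in WT, with a 95% interval of 0.93-fold to 1.397-fold, and the difference was 0.0091 without 3xTg-D replicate 3 and 3xTg-S replicate 2. With SCDi and vehicle compared over both strains, edgeR again called 0 of 10 members and 0.0% of genes, while DESeq2 called 0 members and 55 genes. S100b (log2 fold change 0.25, SE 0.07; unadjusted p = 0.0022; adjusted p = 0.241, edgeR) and Gja1 (-0.13, SE 0.05; adjusted p = 0.304, edgeR) were the 2 of 10 members with an unadjusted p under 0.05, against 13.6% of all genes. Without both doubted libraries the S100b value was 0.16 (SE 0.04; adjusted p = 0.435, edgeR).

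SCDi-infused 3xTg mice were also compared with SCDi-infused and with vehicle-infused WT mice, which share the 3xTg-S libraries. Against WT-S, 0 of 10 members were called by edgeR (1.32% of 15664 genes) and by DESeq2, 1 of 10 had an unadjusted p under 0.05 (10.6% of all genes), and none had groups without overlap (10.8% of all genes). Aqp4 was 153.7, 173 and 129 CPM in WT-S and 214, 146, 197 and 180 CPM in 3xTg-S (log2 fold change 0.28, SE 0.12; unadjusted p = 0.043; adjusted p = 0.449, edgeR). The groups overlapped through 3xTg-S replicate 2, and the estimate was 0.17 without WT-S replicate 3. The members' median was 0.07 (all genes, 0.0037), with 8 of 10 above 0, and 0.033 without WT-S replicate 3. Of the oligodendrocyte markers 9 of 10 had higher estimates and 4 were called, and of the microglial markers 10 of 10 and 3, and their part in the members' values was not tested.

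Against WT-D, edgeR called 0 of 10 members (2.29% of 15567 genes). DESeq2 called 1 of 10, S100b, with an adjusted p of 0.0282, and 577 of the 15567 genes. S100b and Slc1a3 were the 2 of 10 members with an unadjusted p under 0.05 (16.9% of all genes), and S100b alone had groups without overlap (10.4% of all genes), its 4 SCDi libraries at 132 to 165 CPM and its 4 WT-D libraries at 106 to 122 CPM. The log2 fold change of S100b was 0.28 (SE 0.08; 95% interval of the fold, 1.082 to 1.36; adjusted p = 0.0826, edgeR). Slc1a3 was 766, 793, 706 and 736 CPM in WT-D and 804, 785, 899 and 846 CPM in 3xTg-S (log2 fold change 0.15, SE 0.06; adjusted p = 0.231, edgeR), with overlap at 1 library on each side. Oligodendrocyte markers moved in this contrast too, as all 10 had higher estimates and 4 were called, among them Mbp, which encodes myelin basic protein (log2 fold change 0.43; adjusted p = 0.0283, edgeR). Of the microglial markers 10 of 10 had higher estimates and 4 were called. The members' median was 0.05 (all genes, 0.0045), and 0.020 without WT-D replicate 3 and 0.016 with a length and GC trend removed.

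**Figure D3:**
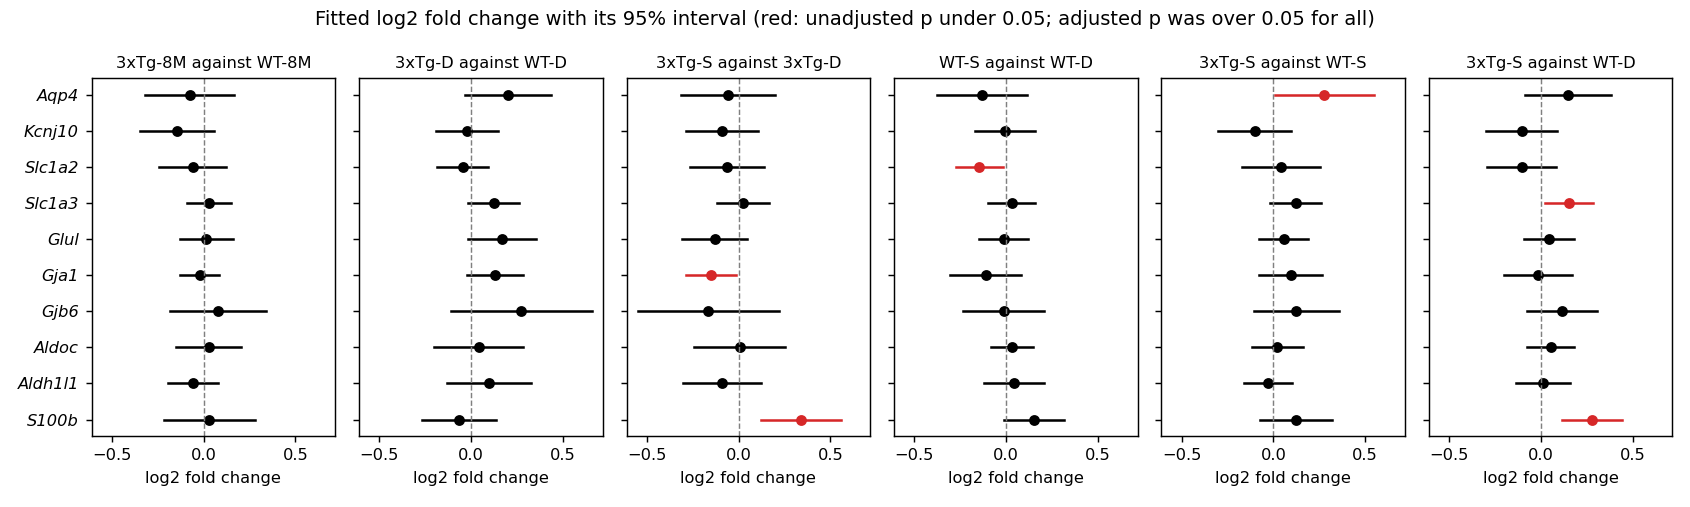
Fitted log2 fold change (horizontal axis) of each gene (rows) in the 6 comparisons of pairs of groups, with its 95% interval as a line; red marks an unadjusted p under 0.05. All adjusted p values were over 0.05, and the largest estimate was 0.34, for S100b in 3xTg-S against 3xTg-D.

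Single libraries departed from their group means, most of all 3xTg-D replicate 3. In 3xTg-D replicate 3 the median absolute deviation from the group mean was 0.28 on the log2 scale over the 10 members, compared to 0.031 to 0.17 in the other 22 libraries. Of the 10 members, 6 had their highest (Gjb6, Glul, Aldoc, Aldh1l1 and Kcnj10) or lowest (S100b) CPM of all 23 libraries there, while 16.3% of 16555 genes had an extreme in that library. Larger shares of all genes, 22.4% and 21.55%, had one in 3xTg-8M replicate 4 and WT-8M replicate 1, where 2 and 1 of the members did. Aldoc was 605, 596.5, 907.5 and 669 CPM in the 3xTg-D replicates, Aldh1l1 36.7, 43.1, 54.5 and 45.9 CPM, and Kcnj10 149, 144, 177 and 168 CPM. Thus the metabolic enzymes, connexin 30 and Kir4.1 were high in this mouse while Aqp4, Slc1a2 and Slc1a3 were the lowest of the group at 153, 2943 and 765 CPM. With 16417906 gene counts, it lay within the depth range of the other vehicle-infused libraries.

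**Figure D4:**
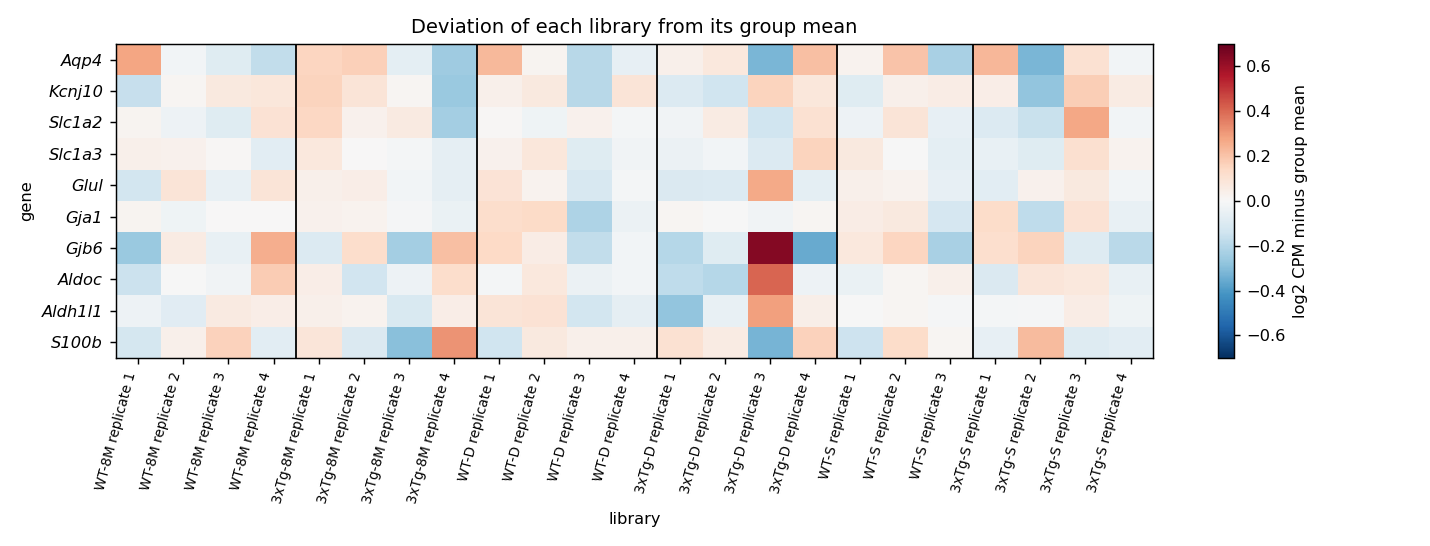
Deviation of each library (columns, separated by group) from its group mean for each gene (rows), in log2 CPM; red is above and blue below the mean. 3xTg-D replicate 3 reached 0.64 for Gjb6 and was below its group mean for S100b, Aqp4 and Slc1a2, and 3xTg-8M replicate 4 and 3xTg-S replicate 2 were low for Aqp4, Kcnj10 and Slc1a2 and high for S100b.

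Across the 23 libraries, with group means subtracted, the members did not rise and fall as a block. Aqp4, Slc1a2, Slc1a3 and Gja1 went together (Pearson's r from 0.32 to 0.71 over 6 pairs), as did Gjb6, Aldh1l1, Aldoc and Glul (0.64 to 0.75 over 6 pairs), while the 16 pairs between these sets had a median r of -0.13, the lowest being Aqp4 with Aldoc (-0.60). The sets were read from these same correlations and the points share library composition. Much of the second set came from 1 mouse: without 3xTg-D replicate 3, r was 0.30 to 0.49 in the second set, 0.32 to 0.75 in the first and 0.14 at the median between them. With 3xTg-S replicate 2 and 3xTg-8M replicate 4 also left out, a choice made after seeing the data, the medians were 0.43 in the first set, 0.42 in the second and 0.34 between them, so that the separation was no longer seen in the other 20 libraries. Kcnj10 correlated with both sets (0.10 to 0.51).

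**Figure D5:**
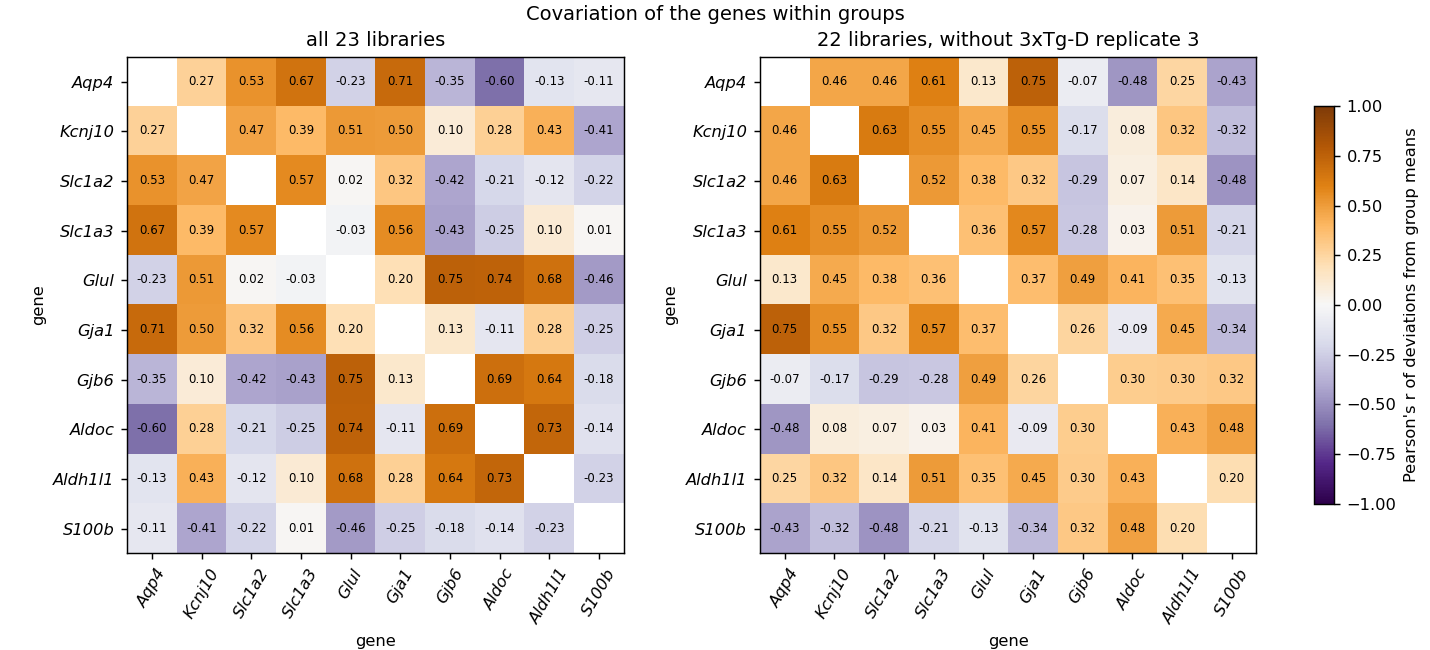
Pearson's r between each pair of genes over library deviations from the group means, for all 23 libraries (left) and for 22 without 3xTg-D replicate 3 (right); orange is positive and purple negative. Glul with Gjb6 went from 0.75 to 0.49 and Aldoc with Gjb6 from 0.69 to 0.30, while Aqp4 with Gja1 stayed high at 0.71 and 0.75.

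Measured against the mean of the other 9 members, the gene closest to the set was Aldh1l1 (r = 0.63), followed by Glul (0.60), Gja1 (0.57), Kcnj10 (0.53), Slc1a3 (0.31), Aldoc (0.29), Gjb6 (0.17), Slc1a2 (0.11), Aqp4 (-0.013) and S100b (-0.40). This order depended on the 3 libraries that stood apart, without which r was 0.30 for Aqp4, 0.33 for Slc1a2, 0.36 for Gjb6, 0.41 for Aldoc, 0.51 for Slc1a3 and 0.14 for S100b, and 0.63 to 0.69 for the other members. Among 11641 other genes averaging 5 CPM or more, those most like the mean of the members were Ppp1r18 (r = 0.82), Ezr (0.82), Pdia4 (0.80), Hspa5 (0.79) and Tcn2 (0.77), and those least like it were Rsrp1 (-0.88), Srsf5 (-0.81) and Gm10419 (-0.80). Ezr encodes ezrin, which astrocytes carry in their fine processes, Pdia4 and Hspa5 chaperones of the endoplasmic reticulum, and Srsf5 a splicing factor. Without the 3 libraries, the gene most like the members was Tyrobp (0.91), a signalling adaptor of microglia. Ppp1r18 and Ezr remained among the 5 most alike without 3xTg-D replicate 3, and Rsrp1 the least alike.

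Some astrocyte genes outside the 10 members were called between 3xTg and WT. Of 40 other astrocyte genes, 3 were called higher in 3xTg-8M (Dio2, which activates thyroid hormone, with a log2 fold change of 0.49, the peptide transporter Slc15a2 with 0.42 and the NMDA receptor subunit Grin2c with 0.41), 1 in 3xTg-D against WT-D (Plcd4, a phospholipase C, 0.44), 2 in 3xTg-S against WT-S (Dio2, 0.36, and Slc15a2, 0.63) and 3 in 3xTg-S against WT-D (Dio2, 0.33, Slc15a2, 0.57, and Ppp1r3c, a regulator of glycogen, 0.35); none was called lower. Their median log2 fold changes were 0.05, 0.03, 0.04 and 0.11. In the same order, 2.58%, 1.39%, 1.32% and 2.29% of all genes were called. At an unadjusted p under 0.05 (edgeR), 9, 9, 8 and 16 of the 40 were higher, and 3 were lower in each comparison. The shares of all genes at that p were 17.4%, 13.1%, 10.6% and 16.9%. Of 17 glutamate and potassium clearance genes, 1 was called lower at 8 months (Kcnj16, the Kir5.1 subunit that pairs with Kir4.1, -0.35) and 1 lower in 3xTg-S against WT-D (Got2, a mitochondrial aminotransferase, -0.21). Ppp1r3c was also the 1 call among 17 glycolysis, glycogen and lactate genes, and S100a6 (0.45) that among the 5 tested of the S100 family, both in 3xTg-S against WT-D.

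Of 16 reactive astrocyte genes, 11 were tested at 8 months and Serpina3n, a protease inhibitor induced in reactive astrocytes, was called lower (log2 fold change -2.17; adjusted p = 1.3e-05, edgeR) while the list's median was 0.22. Osmr, the oncostatin M receptor, was called higher in 3xTg-D against WT-D (0.73), and Vim, an intermediate filament gene, in 3xTg-S against WT-D (0.76). At 8 months 8 of the 11 had higher estimates, with 4 higher and 1 lower at an unadjusted p under 0.05 (edgeR, 17.4% of all genes). The median level of the list was 3.44 TPM. Its summed level overlapped at 10 months, at 528 to 883 CPM in WT-D and 632 to 727 CPM in 3xTg-D. With SCDi it was 562 to 867 CPM in WT-S and 618 to 897 CPM in 3xTg-S. Most tested genes of this list also had higher estimates in the strain contrasts at 10 months. In 3xTg-D against WT-D these were 10 of 11 (median 0.53). Of these 11, 7 were higher and 1 lower at an unadjusted p under 0.05 (edgeR, 13.1% of all genes). For 3xTg-S they were 10 of 11 against WT-D (median 0.51) and 14 of 15 against WT-S (median 0.42). In each, 8 were higher and 1 lower at that p (16.9% and 10.6% of all genes). The filter on low counts kept 15 listed genes in 3xTg-S against WT-S but 11 in WT-S against WT-D. Genes kept only through the 3xTg-S libraries would be higher there by that selection, so the counts against WT-S allow no conclusion. No gene of 10 endfoot anchoring genes, 8 glial connexins and pannexins, 13 folate-pathway genes or 14 astrocyte transcription factors was called in any of these comparisons, and none of any of these lists in the SCDi comparisons within 3xTg, within WT or over both strains, or in the interaction. In 3xTg-S against 3xTg-D, 7 of the 40 other astrocyte genes were higher and 1 lower at an unadjusted p under 0.05 (11.2% of all genes), and 1 higher and 2 lower with a length and GC trend removed. The lists were chosen with earlier results of these libraries in view, and their counts describe these mice only.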

How the data were processed

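Hippocampal mRNA of 23 mice was sequenced in 6 groups taken from the sample labels. The authors prepared poly(A) libraries, trimmed single-end reads with Trimmomatic 0.35, aligned them to GRCm38 with STAR 2.5.1b, and deposited raw counts per gene, without normalization. Whether counting used strand is not given in the sources used here. The 4 lines of the count table that name no gene (24.7 to 30.9% of reads) and 0 count columns were set aside.

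Counts were filtered with filterByExpr (minimum count 10), scaled by TMM and tested with edgeR 4.0.16 (R 4.3.3) quasi-likelihood fits over all genes of the groups compared, with Benjamini-Hochberg adjustment and a threshold of 0.05. The interaction and the comparison over both strains used the 15 libraries of 10 months. Intervals are 95% and cover the spread between mice. Deviations used log2 CPM with a prior count of 2. Alternatives were DESeq2 1.42.0 (likelihood ratio test, and its size factors), no filter, the looser cut-off that the study used (p under 0.01, unadjusted), removal of a length and GC trend, a block for animal numbers, 1 fit of all 15 libraries, and leaving out each library. Fits were tested on simulated data. All 10 members were named in each comparison, other listed genes only where called, and likeness named the 5 highest and 3 lowest genes. Lengths came from the Gencode M21 annotation (99.7% of genes). No replicate pair was identical, and where nothing says that mice were from separate litters or cages, p-values measure the spread between these samples. The members and lists were chosen with earlier results of these data known. Part of the strain description and 1 marker gene are not reported here.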

Additional observations from a re-analysis of the deposited data

Results flagged for a closer look

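In 50 gene and group combinations with 4 libraries, 3 held a library whose gap to its nearest neighbour was large for its group by Dixon's criterion, and chance gives about 1 in 20. Aldh1l1 was 39.75 CPM in 3xTg-8M replicate 3, below the other libraries of that group. Glul was 1891 CPM in 3xTg-D replicate 3, above the 1466 to 1499 CPM of the others. S100b was 164.5 CPM in 3xTg-S replicate 2, above the 132 to 135 CPM of the others, and the summed oligodendrocyte and choroid plexus markers were highest of the group in the same library (7056 and 578 CPM). Their part in the S100b value was not tested.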

How the results depend on the processing

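The limits are set by the spread between 3 or 4 mice per group rather than by depth, and p values missing the threshold do not show that values were equal. Of 10 members, 0 were called in any of the 8 comparisons by edgeR, and the same held with DESeq2 size factors, 1 fit of all 15 libraries, a length and GC trend removed, and each library left out. The exceptions were 1 member called in 3xTg-S against 3xTg-D and over both strains (S100b) without a filter or at the study's cut-off of 0.01, 1 without a filter in 3xTg-S against WT-S (Aqp4), and 1 in 3xTg-S against WT-D (S100b) without a filter, with DESeq2 or at that cut-off. The calls over all genes moved by over 1.5 times in several of these settings: at 8 months 399, 684 with DESeq2 and 854 without a filter, in 3xTg-D against WT-D 216, 185 higher with 201 lower, and 792, with 355 in 1 fit of all 15 libraries, in 3xTg-S against 3xTg-D 0, 14 and 112, in 3xTg-S against WT-D 356, 577 and 1135, and over both strains 0, 55 and 94. In 3xTg-S against WT-S they were 206, and 729 without a filter. Without a filter more genes were tested (32065 against 15483 at 8 months). The members' median over both strains was 0.018 without 3xTg-D replicate 3 and 3xTg-S replicate 2, beside -0.06, and -0.087 to -0.0033 with each library left out. Otherwise the cause was not tested.

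With a length and GC trend removed, the log2 fold change changed sign for Aqp4 0.021, Slc1a2 0.039 and Gja1 0.046 in 3xTg-8M against WT-8M, Aqp4 0.018, Slc1a2 0.059 and Aldoc -0.022 in 3xTg-S against 3xTg-D, Aldoc -0.0091 and Kcnj10 0.0068 in WT-S against WT-D, Slc1a3 0.029 in the interaction and Aldoc -0.016 in SCDi over both strains. Leaving out both 3xTg-D replicate 3 and 3xTg-S replicate 2, chosen after seeing the data, the log2 fold change changed sign for Gjb6 0.047, Aldh1l1 0.017 and Kcnj10 0.049 in 3xTg-S against 3xTg-D, Gja1 0.0078, Gjb6 0.061, Aldoc 0.10 and Kcnj10 0.054 in the interaction and Gjb6 0.015, Aldh1l1 0.030 and Kcnj10 0.021 in SCDi over both strains. Without a filter on low counts, the log2 fold change changed sign for Aldoc -0.00064 in 3xTg-S against 3xTg-D and Aldh1l1 -0.0047 in 3xTg-S against WT-D. With a block for animal numbers, the log2 fold change changed sign for Gjb6 0.030, Kcnj10 0.010 and Glul 0.020 in WT-S against WT-D and Slc1a3 0.0054 and Aldoc 0.025 in the interaction. None of these values was called.

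Sign changes when 1 library at a time was left out, also without a call, were as follows. For 3xTg-8M against WT-8M, the ranges were Aqp4 -0.14 to 0.020, Slc1a2 -0.11 to 0.014, Gjb6 -0.013 to 0.17, Aldoc -0.029 to 0.088, Glul -0.033 to 0.044 and S100b -0.078 to 0.12. For 3xTg-D against WT-D, the ranges were Slc1a2 -0.084 to 0.011, Aldoc -0.10 to 0.11, Kcnj10 -0.082 to 0.024 and S100b -0.12 to 0.043. For 3xTg-S against 3xTg-D, the ranges were Aqp4 -0.16 to 0.036, Slc1a3 -0.0084 to 0.083, Gjb6 -0.28 to 0.10, Aldh1l1 -0.17 to 0.015 and Aldoc -0.058 to 0.16. For WT-S against WT-D, the ranges were Slc1a3 -0.0029 to 0.070, Gjb6 -0.092 to 0.098, Aldh1l1 -0.00099 to 0.075, Kcnj10 -0.064 to 0.037 and Glul -0.049 to 0.022. For 3xTg-S against WT-S, the ranges were Slc1a2 -0.057 to 0.091 and Aldoc -0.0087 to 0.055. For 3xTg-S against WT-D, the ranges were Gja1 -0.088 to 0.043 and Aldh1l1 -0.036 to 0.045. For the interaction, the ranges were Aqp4 -0.035 to 0.18, Slc1a2 -0.014 to 0.13, Slc1a3 -0.042 to 0.052, Gja1 -0.097 to 0.028, Gjb6 -0.26 to 0.11 and Aldoc -0.089 to 0.13. For SCDi over both strains, the ranges were Gjb6 -0.15 to 0.045, Aldh1l1 -0.069 to 0.028 and Aldoc -0.014 to 0.097. Kcnj10 over both strains ranged from -0.079 to -0.0051.

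No paired analysis was possible because the labels give no replicate number that groups share. The block tried in its place, runs of 4 consecutive animal numbers in the labels at 10 months, changed no call of a member, while the calls over all genes in 3xTg-S against WT-S went from 206 to 78 and the other counts moved by less than 1.5 times.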

Other observations

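Within groups, several members went with the summed markers of microglia and neurons, and which ones did depended on the 3 libraries that stood apart. Over all 23 libraries the Pearson's r with the microglial markers was 0.70 for Slc1a3, 0.57 for Slc1a2, 0.29 for Kcnj10 and -0.23 for Aldoc. In the 20 libraries without those 3 it was 0.65 for Slc1a3, 0.55 for Slc1a2, 0.79 for Kcnj10, 0.81 for Aldoc, 0.63 for Aldh1l1 and 0.59 for Glul. With the neuronal markers r was 0.71 for Slc1a3 and 0.60 for Slc1a2 over all 23 libraries, and 0.60 and 0.32 in the 20. Gjb6 had an r of 0.57 with the meningeal markers, and 0.56 in the 20 libraries. These are descriptions over libraries that share scaling, read after the data were seen.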
